A study of Mus musculus with 16 samples.

Results

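The genes described here repair broken or mispaired DNA, or watch over the replication fork and halt the cell cycle when it stalls. The list holds 35 genes of homologous recombination, the Fanconi pathway, the fork checkpoint, mismatch and excision repair and end joining. On the arrays 33 of the 35 had a probe set whose annotation gives that symbol alone, out of 12393 genes so covered, and each gene was read from its probe set with the highest mean. Fancd2 and Clspn had none and were not analysed here. Bard1, the partner of Brca1, was too dim to be tested, with signals of 2.39 to 42.5, under the filter of 51.1. The other 32 genes are the members tested, among 7619 genes tested in all.

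RNA came from adult mouse neural stem cells grown in culture and was measured on Affymetrix arrays, 1 array per sample, in a study of genes that depend on Tlx (Nr2e1), a nuclear receptor that these cells need to keep dividing. Every culture had the genotype Tlx(f/Z), in which f commonly marks an allele that Cre recombinase can delete. One kind of culture also carried CreER, a Cre that 4-hydroxytamoxifen (4OHT) activates, and the other carried no Cre. Each kind received 4OHT or vehicle and was collected at 36 h or 60 h, which makes 8 groups of 2 arrays and 16 arrays in all. The labels do not give the promoter that drives CreER, the meaning of Z or the age of the animals. Replicates are described as biological in the design text, but it is not stated that they came from different animals. The p-values thus rest on the spread among these cultures, which may be partly technical. In the main fit this spread was shared by genes of similar signal and not estimated for each gene alone. Deletion of the f allele could not be checked, since no probe set was listed under Nr2e1.

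Dividing stem cells meet DNA damage mostly in S phase. When a fork stalls, single-stranded DNA is coated by replication protein A, which calls in the kinase Atr with its activator Topbp1. Atr switches on Chek1, and the fork protection pair Timeless and Tipin carries the signal, while Atm and Chek2 answer double-strand breaks. Breaks at forks are resected by the Mre11 complex and Exo1 and repaired from the sister chromatid by Brca1, Brca2 and their helpers, and the Fanconi proteins clear crosslinks in the way. The ends of breaks outside S phase are bound by the Ku pair, Xrcc5 and Xrcc6, and joined. Many of these genes are transcribed in late G1 and S phase from promoters bound by E2F factors, so their RNA is low in resting cells.

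Values are linear signals as deposited, and changes are differences of log2(signal + 16), which understates the change of dim genes. The arrays had median signals of 92.2 to 132.6, and replicate arrays correlated at r = 0.992 to 0.994 across genes. Of the markers that define neural stem cells, 6 of 8 with a probe set were past the filter (Nes, Sox2, Vim, Fabp7, Pax6 and Msi1), while Hes5 and Prom1 were below it. Markers of other cells were mostly below the filter: 0 of 6 endothelial and mural, 0 of 5 fibroblast, 1 of 8 microglial, 1 of 5 oligodendrocyte, 2 of 8 neuronal and 4 of 7 astrocyte genes were past it. Of all 12393 genes 7619 were past it.

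The main comparison joined 36 h and 60 h and asked what 4OHT changed in CreER cultures, where Cre can be activated. Of the 32 members tested 24 fell, 0 rose and 8 did not pass the test (limma, adjusted p under 0.05). Among all genes tested 8.36% fell and 4% rose. The median change of the members was −0.52, beside −0.07 for all genes. All 9 recombination and resection genes tested and all 7 fork checkpoint genes tested fell, as did 3 of 4 genes of replication protein A and fork ubiquitin ligases, 4 of 7 of mismatch repair, excision repair and end joining, and 1 of 5 Fanconi genes. The differences between these roles were not tested. After each array was scaled to a common median, 26 members fell (19.1% of all genes), and after quantile normalization 26 fell (19.2%).

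**Figure D1:**
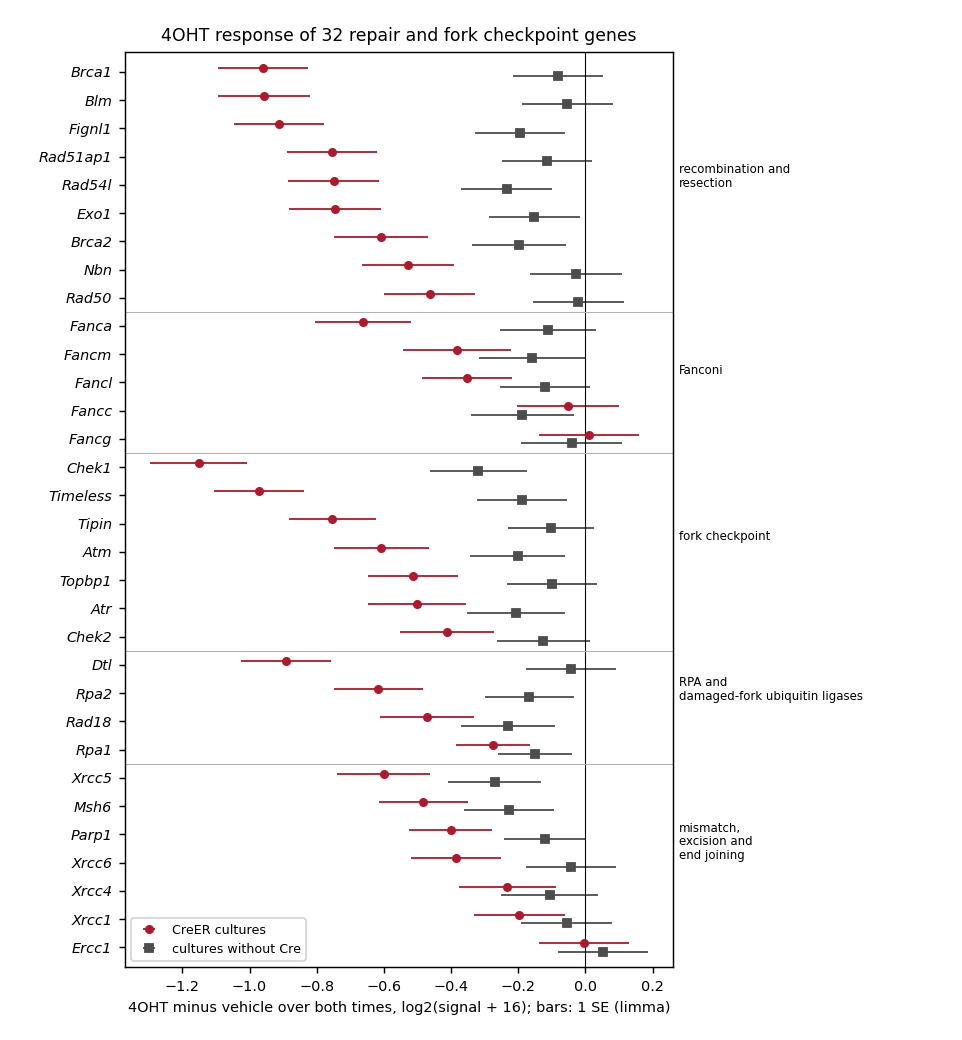
Change of the 32 members with 4OHT over both times, as 4OHT minus vehicle on the log2(signal + 16) scale, in CreER cultures (circles) and in cultures without Cre (squares). Genes are ordered by role and bars are 1 standard error of the limma fit. In CreER cultures 31 of 32 points lie below 0, from −1.15 for Chek1 to 0.01 for Fancg, and without Cre all points lie between −0.32 and 0.05.

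Both 4OHT arrays lay below both vehicle arrays at each time in 25 of the 32 members, against 13% of all genes. The exceptions were Fancc, Fancg, Fancm, Rpa1, Rad18, Xrcc1 and Ercc1. In whole-culture RNA, fewer cells that express a gene and less of its RNA per cell cannot be told apart. Array medians overlapped, at 97.8 to 123 for the 4 CreER vehicle arrays and 92.2 to 113 for the 4 CreER 4OHT arrays. The ratio of 5' to 3' actin signal, a measure of RNA integrity, did not overlap between treatments at either time and shifted in opposite ways. At 36 h it was 0.773 and 0.716 under vehicle and 0.825 and 0.789 with 4OHT, and at 60 h 0.882 and 0.862 under vehicle and 0.841 and 0.720 with 4OHT. With the ratio in the model 27 members fell over both times (15.4% of all genes).

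The sequences upstream of these genes were compared because so many of them fell together. Promoter windows of 300 bases, from 250 before to 50 after the transcription start, were taken from RefSeq on build GRCm38.p6 and matched 28 of the 32 members tested. They were searched on both strands for 4 E2F-type strings of 7 letters, namely TTCCCGC and TTGGCGC and TTCGCGC and TTGCCGC. At least 1 of these strings lay in 17 of 28 member windows (60.7%), against 17.2% of 9888 array genes with a window and 10.9% of all 27025 genes of the table. It lay in 13 of 20 members that fell (65%) and in 4 of 8 that did not pass (50%). The CHR letters TTTGAA, found before many mitotic genes, lay in 0 of 28 member windows against 15.4% of array genes, and the letters CCAAT in 57.1% against 42.3%. A match is a description of the letters only. The 150 bases before the start are given for Dtl, Fignl1 and Blm, among the members with the largest falls, and for Fancg, whose signal hardly differed. Capitals mark E2F-type matches and CCAAT boxes.
Dtl: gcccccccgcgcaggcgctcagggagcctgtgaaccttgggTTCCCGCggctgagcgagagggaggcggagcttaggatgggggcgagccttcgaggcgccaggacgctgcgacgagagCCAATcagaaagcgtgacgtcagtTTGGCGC
Fignl1: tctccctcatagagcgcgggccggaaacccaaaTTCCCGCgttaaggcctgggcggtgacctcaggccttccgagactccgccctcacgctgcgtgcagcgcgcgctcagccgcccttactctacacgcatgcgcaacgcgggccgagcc
Blm: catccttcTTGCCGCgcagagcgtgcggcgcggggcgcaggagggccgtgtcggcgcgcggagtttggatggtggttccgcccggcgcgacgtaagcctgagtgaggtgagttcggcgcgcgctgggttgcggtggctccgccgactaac
Fancg: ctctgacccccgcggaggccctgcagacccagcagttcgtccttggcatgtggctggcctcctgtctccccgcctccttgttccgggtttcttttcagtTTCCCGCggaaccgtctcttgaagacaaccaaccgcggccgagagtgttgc
The Dtl stretch lies at chr1:191575545-191575694, that of Fignl1 at chr11:11808963-11809112, that of Blm at chr7:80534999-80535148 and that of Fancg at chr4:43010302-43010451, all on the minus strand. Dtl has 2 such matches in this stretch, at −109 and −7 from the start. Within these stretches the match of Fignl1 begins at −117, that of Blm at −142 and that of Fancg at −51. The same 7 letters, TTCCCGC, thus stand before Dtl and Fignl1, which fell, and before Fancg, which did not pass. Fignl1 had a further match after the start, TTCGCGC at 6 to 12. Chek1, the member with the largest fall, had its match after the start, at 44 to 50 on the opposite strand, and the window of Timeless had none.

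The fork checkpoint held the largest fall of all members, that of Chek1, the kinase that stops the cell cycle when forks stall. In CreER cultures its signal under vehicle was 215 and 291 at 36 h and 203 and 180.2 at 60 h. Under 4OHT it was 128 and 126 at 36 h and 60.5 and 63.7 at 60 h. All 4 arrays with 4OHT thus lay below all 4 with vehicle. The change was −1.15 ± 0.14 (SE), a fall to 0.45 of the vehicle level (adjusted p = 1.13e-12, limma). A second probe set of Chek1 past the filter gave −0.62, a smaller fall with the same sign.

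Timeless and Tipin form the pair that travels with the fork and steadies it. Timeless had signals of 675 and 779 at 36 h and 610.1 and 573 at 60 h under vehicle. With 4OHT they were 389 and 424 at 36 h and 217 and 315 at 60 h. These sets did not overlap, and the change was −0.97 ± 0.13 (SE, adjusted p = 1.39e-10, limma), with −0.62 at a second probe set. For Tipin the vehicle arrays read 1353 and 1502 at 36 h and 1314 and 1122 at 60 h, and the 4OHT arrays 909 and 1029, then 582 and 658. Tipin changed by −0.75 ± 0.13 (SE, adjusted p = 6.1e-07, limma), again with no overlap.

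The sensor kinases moved less. Atm, the kinase of double-strand breaks, had one of the tightest separations: 200.5 to 223 over the 4 vehicle arrays and 125 to 137 over the 4 arrays with 4OHT, a change of −0.61 ± 0.14 (SE, adjusted p = 5.96e-04, limma). Atr, the kinase of stalled forks, went from a mean of 165 ± 44.8 to 109.7 ± 11.9 (SD, n = 4 each), a change of −0.50 (adjusted p = 0.00813, limma). Topbp1, which activates Atr, changed by −0.51 (adjusted p = 0.0024) and Chek2, the effector of Atm, by −0.41 (adjusted p = 0.0308). Chek2 was among the members nearest the threshold, and with other settings or arrays it passed in 19 of 26 fits. The median over the 7 checkpoint genes was −0.61.

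Among recombination and resection genes the falls ran from −0.46 to −0.96, with a median of −0.75. Brca1, which directs broken ends into recombination, read 522 and 608 at 36 h and 548 and 433 at 60 h under vehicle. With 4OHT it read 331 and 300.1, then 204 and 229.7. The 4 arrays of each treatment did not overlap, and the change was −0.96 ± 0.13 (SE, adjusted p = 2.41e-10, limma). Its other probe sets past the filter gave −0.88 and −0.82. Blm, the helicase that dissolves joined DNA molecules, read 337 and 373 at 36 h and 294 and 259 at 60 h under vehicle. With 4OHT it read 193 and 200.2, then 108 and 131, also without overlap, a change of −0.96 ± 0.14 (SE, adjusted p = 5.89e-10, limma).

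Fignl1, an ATPase of recombination repair, read 579 and 683 at 36 h and 613 and 460.2 at 60 h under vehicle, and 356 and 422, then 211 and 252, with 4OHT. No array with 4OHT reached a vehicle array, and the change was −0.91 ± 0.13 (SE, adjusted p = 2.11e-09, limma). Its second probe set was below the filter and gave 0.05, and the mean of both gave −0.43, still past the test. Rad51ap1, a DNA-binding accessory protein of recombination, read 516 and 621 at 36 h and 396 and 345 at 60 h under vehicle, and 363 and 340.1, then 192 and 207, with 4OHT. Within each time its groups did not overlap, but the higher 36 h array with 4OHT exceeded the lower 60 h array with vehicle. Its change was −0.75 ± 0.13 (SE, adjusted p = 1.72e-06, limma), with −0.56 to −0.78 at 3 other probe sets.

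The other recombination genes fell by similar or smaller steps. Rad54l, a motor protein of strand exchange, went from 398 ± 80.8 to 233 ± 63.2 (SD, n = 4 each), a change of −0.75. Exo1, the resecting exonuclease, went from 352 ± 49.2 to 207 ± 52.7 (SD, n = 4 each), also −0.75. Brca2, a mediator of recombination, went from 219 ± 41.7 to 137 ± 15.8 (SD, n = 4 each), a change of −0.61. Adjusted p was 2.57e-06 for Rad54l, 3.33e-06 for Exo1 and 4.27e-04 for Brca2 in the limma fit. The Mre11 complex subunits came last. Nbn changed by −0.53 (adjusted p = 0.00231, limma) and Rad50 by −0.46 (adjusted p = 0.00967, limma), and in Rad50 the 258 to 314 of the vehicle arrays stood apart from the 187 to 213 of the 4OHT arrays.

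Dtl, the adaptor of an S-phase ubiquitin ligase that degrades replication factors and p21, had the largest fall outside those classes. Under vehicle it read 441 and 506 at 36 h and 459 and 325 at 60 h. With 4OHT it read 242 and 344 at 36 h and 173 and 170.0 at 60 h. The groups were apart within each time, and the change was −0.89 ± 0.13 (SE, adjusted p = 6.47e-09, limma). Rpa2, the middle subunit of replication protein A, went from 905 ± 138 to 592 ± 140.0 (SD, n = 4 each), a change of −0.62 (adjusted p = 1.35e-04, limma), with −0.57 at its second probe set. Its large partner Rpa1 changed by −0.28 and did not pass (adjusted p = 0.0798, limma). Rpa1 passed in both scaled fits, at −0.22 and −0.24. Rad18, the ligase that tags the clamp at damaged templates, changed by −0.47 (adjusted p = 0.0107, limma), though at 60 h its higher 4OHT array, 154, exceeded its lower vehicle array, 148.

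Of the 5 Fanconi genes tested 1 fell. Fanca, a core complex subunit, read 211 and 300.01 at 36 h and 229 and 151 at 60 h under vehicle, and 167 and 164, then 101 and 105, with 4OHT, a change of −0.66 ± 0.14 (SE, adjusted p = 1.42e-04, limma). Its groups were apart within each time. Fancl, the ubiquitin ligase subunit, changed by −0.35 and did not pass (adjusted p = 0.0626, limma), but passed in both scaled fits at −0.30 and −0.26. Fancc and Fancg, also core subunits, hardly differed between treatments. Fancc had −0.05 (95% interval −0.35 to 0.25) and Fancg 0.01 (−0.28 to 0.30), so a fall as large as that of Fanca lay outside both intervals. The dimmer second probe set of Fancg, below the filter, gave −0.27.

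Fancm, the DNA translocase that anchors the core complex, passed the test at 36 h and not at 60 h. At 36 h it read 103 and 109 under vehicle and 46.4 and 46.2 with 4OHT, a change of −0.97 ± 0.23 (SE, adjusted p = 0.00327, limma). At 60 h it read 65.5 and 67.6 under vehicle and 55 and 112 with 4OHT, a change of 0.20 (adjusted p = 0.675, limma). At 60 h the 2 arrays with 4OHT thus lay on either side of the vehicle arrays. Both 36 h arrays with 4OHT read below 51.1, the level of the filter, so the size of the 36 h change rests on dim signals. The difference between times, 1.17, did not pass (adjusted p = 0.0959, limma), and over both times Fancm had −0.38 (adjusted p = 0.0963). The time difference passed after median scaling, with no trend, with the mean of all probe sets, and without CreER 4OHT 60 h replicate 1, the lower of the 2 arrays.

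Of the 7 genes of mismatch repair, excision repair and end joining 4 fell. Xrcc5, the larger Ku subunit, went from 268 ± 17.2 to 174 ± 38 (SD, n = 4 each), a change of −0.60 (adjusted p = 4.62e-04, limma). Its partner Xrcc6 changed by −0.39 (adjusted p = 0.0368), Msh6, which recognises mismatches, by −0.48 (adjusted p = 0.00544), and Parp1, which senses strand breaks, by −0.40 (adjusted p = 0.0145). Xrcc6 passed in 16 of 26 other fits and Parp1 in 20 of 26. The scaffold Xrcc1 (−0.20) and the end-joining factor Xrcc4 (−0.23) did not pass, with 95% intervals of −0.46 to 0.07 and −0.52 to 0.05. Ercc1, subunit of an excision nuclease, had 299 to 341 under vehicle and 294 to 364 with 4OHT, which overlapped, and a change of −0.0041 (95% interval −0.27 to 0.26).

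**Figure D2:**
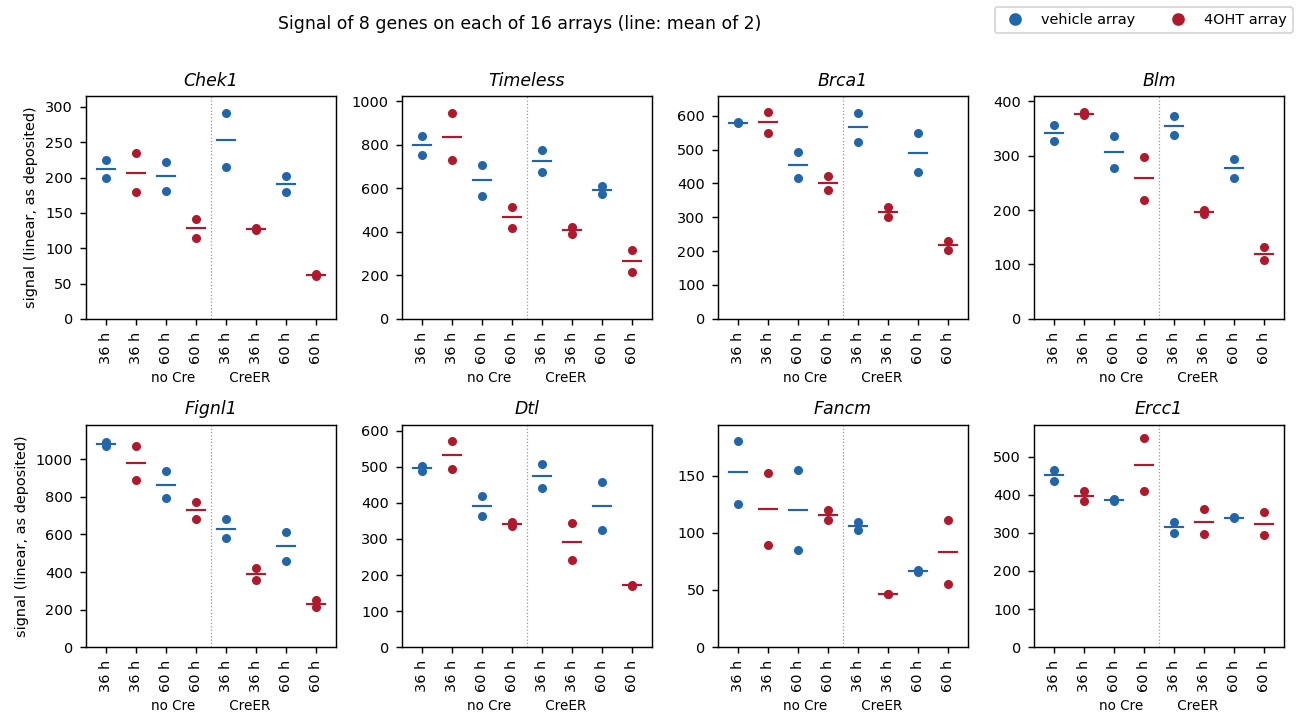
Linear signal as deposited of 8 members on each of the 16 arrays, with vehicle arrays in blue and 4OHT arrays in red, cultures without Cre on the left and CreER cultures on the right of each panel, and a line at the mean of the 2 arrays. Chek1, Timeless, Brca1, Blm, Fignl1 and Dtl are lower on both CreER 4OHT arrays than on both CreER vehicle arrays at each time, Fancm is so at 36 h, where its 4OHT arrays read 46.4 and 46.2, and Ercc1 overlaps.

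At 36 h 12 of the 32 members had already fallen and 0 had risen, beside 1.5% of all genes that fell. These were Brca1, Brca2, Rad51ap1, Rad54l, Blm, Fignl1, Nbn, Fancm, Atr, Chek1, Timeless and Dtl. Chek1 changed by −0.90 (adjusted p = 0.0027), Timeless by −0.81 (0.00327), Brca1 by −0.81 (0.00355) and Blm by −0.80 (0.00414) in the limma fit. This count depended on the scale and on single arrays. It was 26 after median scaling (14.3% of all genes), 25 after quantile normalization (11.7%), 7 with the mean of all probe sets (1.17%), 6 with the actin ratio in the model (0.932%) and 0 with no filter (0.0565%). It was 0 without vehicle replicate 2 (0.171%) or without 4OHT replicate 1 (0.0919%), 1 without 4OHT replicate 2 (0.249%) and 5 without vehicle replicate 1 (0.551%), so calls were fewer among all genes as well.

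At 60 h 17 of 32 members had fallen and 0 had risen, beside 4.63% of all genes that fell. Chek1 changed by −1.41 ± 0.20 (SE, adjusted p = 3.41e-09), Fignl1 by −1.15 (4.63e-07), Timeless by −1.13 (7.6e-07), Brca1 by −1.11 (1.12e-06) and Blm by −1.11 (1.8e-06) in the limma fit. The count was 11 with no filter (1.32% of all genes), 6 with the spread from the arrays of these groups alone (0.289%), and 10 without vehicle replicate 1 (1.06%) or without 4OHT replicate 1 (1.56%). At both times 8 members passed: Brca1, Rad51ap1, Rad54l, Blm, Fignl1, Chek1, Timeless and Dtl. Brca2, Nbn, Fancm and Atr passed at 36 h and not at 60 h. Exo1, Fanca, Atm, Tipin, Topbp1, Rpa2, Msh6, Xrcc5 and Parp1 passed at 60 h and not at 36 h. The other 11 passed at neither time, and 4 of these, Rad50, Chek2, Rad18 and Xrcc6, passed over both times together.

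The difference between the responses at 60 h and 36 h was tested directly. It passed for 0 of 32 members (limma, 1 at an unadjusted p under 0.05, that of Fancm), beside 0.197% of all genes in either direction. Of the 32 differences 24 were negative, which is a more negative change at 60 h than at 36 h. The median was −0.19 beside −0.07 for all genes. Chek1 had −0.51 (95% interval −1.08 to 0.06) and Fignl1 −0.47 (−0.996 to 0.05). The 36 h and 60 h changes of each member are therefore given side by side and not as a trend.

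**Figure D3:**
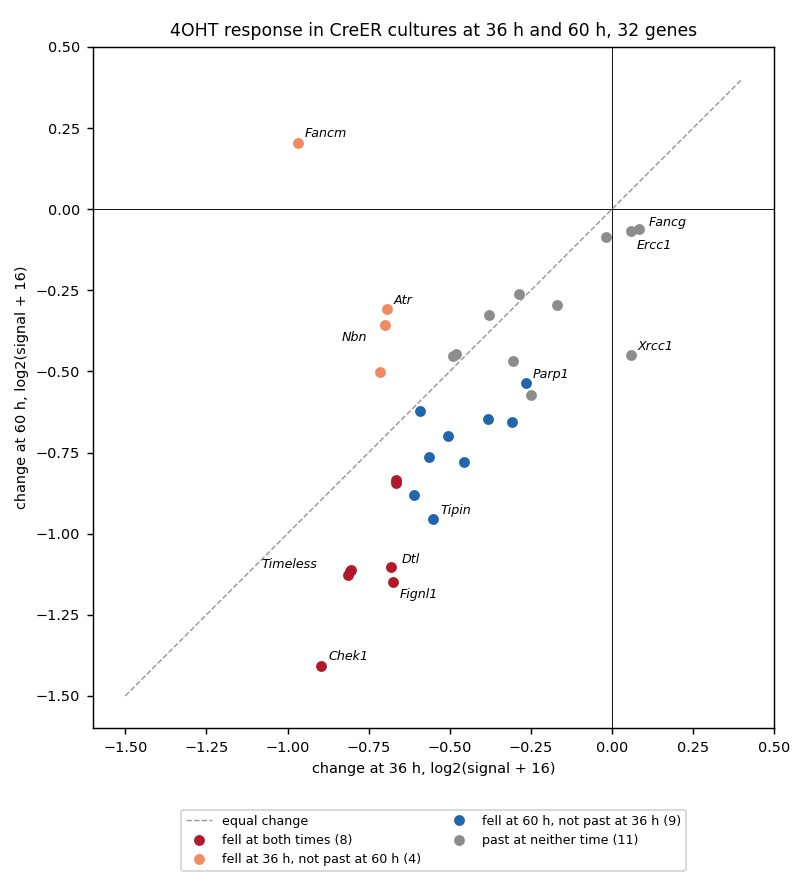
Change with 4OHT in CreER cultures at 36 h (horizontal axis) and at 60 h (vertical axis) for the 32 members, both on the log2(signal + 16) scale, with colours for the time at which a member passed the test and a dashed line at equal change. Most points lie below the line, Chek1 at −0.90 and −1.41 among them, and Fancm stands alone above 0 at 60 h with −0.97 and 0.20.

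In cultures without Cre, 4OHT had no called effect on the members when both times were joined. With limma 0 of 32 passed, and 1 had an unadjusted p under 0.05, Chek1 with −0.32 (unadjusted p = 0.0276). Among all genes 0.0656% passed in either direction. The changes ran from −0.32 to 0.05 and 31 of 32 were negative, with a median of −0.12 beside −0.06 for all genes. Chek1 read 199 and 225 under vehicle and 234 and 180.1 with 4OHT at 36 h, which overlap. At 60 h it read 181 and 223 under vehicle and 142 and 115 with 4OHT, which do not. Timeless and Dtl had the same order at 60 h, with 566 and 709 against 516 and 417 for Timeless and 364 and 420.2 against 346 and 337 for Dtl. How many members, or genes in all, had this order without Cre was not counted. The response without Cre was not tested at 60 h alone.

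The response in CreER cultures was then compared with that in cultures without Cre in 1 test. It was more negative with CreER in 8 of 32 members and more positive in 0, beside 0.814% of all genes that were more negative. The 8 were Blm (−0.90, adjusted p = 5.56e-04), Brca1 (−0.88, 6.44e-04), Dtl (−0.85, 0.0012), Chek1 (−0.83, 0.0047), Timeless (−0.78, 0.00391), Fignl1 (−0.72, 0.0121), Tipin (−0.65, 0.0233) and Rad51ap1 (−0.64, 0.0358) in the limma fit. Without Cre, Blm read 326 and 358 under vehicle and 380.0 and 375 with 4OHT at 36 h, and 278 and 336, then 299 and 218, at 60 h. Its 36 h arrays with 4OHT were thus the higher ones, while in CreER cultures they were the lower ones. Brca1 without Cre overlapped at both times, at 580.5 and 578 against 611 and 550.2, then 416 and 493 against 423 and 381. The median difference over the 32 members was −0.41, beside −0.02 for all genes.

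By role the difference passed for 4 of 9 recombination genes, 3 of 7 checkpoint genes, 1 of 4 in the group of Dtl, and 0 of 5 Fanconi and 0 of 7 mismatch, excision and end-joining genes. Exo1 missed the threshold (−0.59, adjusted p = 0.0741, limma), as did Fanca (−0.55, 0.159) and Rad54l (−0.52, 0.164). The number of members past the test was 20 after median scaling (9.91% of all genes), 22 after quantile normalization (10.2%), 13 with the actin ratio in the model (2.52%), 3 with the mean of all probe sets (0.516%) and 2 with no filter (0.0403%). It was 3 without the no-Cre 4OHT 36 h replicate 1 (0.289%), and 5 without CreER vehicle 36 h replicate 2 (0.394%), CreER 4OHT 36 h replicate 1 (0.368%), no-Cre vehicle 36 h replicate 1 (0.302%) or no-Cre vehicle 60 h replicate 1 (0.315%).

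CreER and no-Cre cultures that received vehicle were compared next. Of the 32 members 6 were lower in CreER cultures and 1 was higher, beside 26.6% and 7.97% of all genes. Fignl1 differed most, at 584 ± 93.2 with CreER and 974 ± 139 without (SD, n = 4 each), a difference of −0.73 (adjusted p = 7.49e-07, limma). Its vehicle arrays did not overlap between the genotypes. Fancm (−0.56), Nbn (−0.50), Xrcc4 (−0.41), Rad51ap1 (−0.40) and Ercc1 (−0.34) were the others lower. Xrcc6 was higher with CreER, at 674 ± 101 against 505 ± 50.1 (SD, n = 4 each), a difference of 0.40 (adjusted p = 0.0113, limma). For Chek1 (0.08), Brca1 (0.03), Blm (−0.04), Dtl (−0.04), Timeless (−0.12) and Tipin (−0.10) the difference did not pass.

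The counts of that comparison changed with the scale of the arrays. After median scaling 11 members were higher (28.6% of all genes) and 5 lower (23.4%), and after quantile normalization 11 were higher (29.2%) and 4 lower (26%). Brca1, Chek1, Chek2, Exo1, Fanca, Fancl, Rad54l, Rpa1, Rpa2 and Xrcc5 joined Xrcc6 among the higher ones in both. Fignl1, Fancm, Nbn and Rad51ap1 stayed lower in both, with −0.55 and −0.57 for Fignl1. As deposited the count of lower members was 3 without no-Cre vehicle 36 h replicate 2 (19.5% of all genes) and 2 without no-Cre vehicle 60 h replicate 2 (17.7%), and 1 with the actin ratio in the model (7.7%). The actin ratio stood apart between the genotypes under vehicle, at 0.716 to 0.773 with CreER and 0.593 to 0.666 without at 36 h, and at 0.862 to 0.882 and 0.773 to 0.788 at 60 h. Cell type markers differed as well under vehicle, where 26.6% of all genes were lower with CreER and 7.97% higher as deposited. Of 6 stem cell genes tested 3 were lower with CreER, among them Nes (−0.83). So were 3 of 4 astrocyte genes, among them Gja1 (−2.04), while Aldoc was higher (0.34). The part of these markers in the result was not tested. Xrcc6 did not pass without CreER vehicle 36 h replicate 2, CreER vehicle 60 h replicate 1, or the first no-Cre vehicle array of either time.

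Time in culture was compared in cultures without Cre and in CreER cultures that received vehicle. In cultures without Cre, over both treatments, 3 of 32 members were lower at 60 h than at 36 h, beside 1.58% of all genes. They were Timeless (−0.57, adjusted p = 0.00127), Dtl (−0.47, 0.0168) and Brca1 (−0.43, 0.0388) in the limma fit. The count was 23 after median scaling (39.5% of all genes), 12 after quantile normalization (14.9%) and 8 with the spread from these arrays alone (5.62%). It was 0 with the actin ratio in the model (0.0263%) or with the mean of all probe sets (1.83%). When single no-Cre arrays were left out the count changed, and calls among all genes changed as well. The median change of the members then lay between −0.28 and −0.18, and that of all genes between −0.18 and −0.05. The actin ratio itself moved with time there, from 0.548 to 0.666 at 36 h to 0.773 to 0.891 at 60 h, and its part in the result was not tested beyond that model. With the ratio in the model the difference of Timeless was 0.24, and with the mean of its probe sets 0.02.

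In CreER cultures under vehicle 0 of 32 members passed between 60 h and 36 h (limma, 8 at an unadjusted p under 0.05), beside 0.774% of all genes lower. The nearest were Rad51ap1, 516 and 621 at 36 h against 396 and 345 at 60 h (−0.59, adjusted p = 0.0923, limma), and Atr, 188 and 217 against 138 and 119 (−0.59, adjusted p = 0.148, limma). In each the 36 h and 60 h arrays did not overlap. After median scaling 17 members were lower (12% of all genes) and after quantile normalization 6 (6.47%).

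Probe sets other than the one used gave a check within the same arrays. Past the filter were 16 further probe sets, for 11 members. In CreER cultures the change of all 16 was negative. It lay near that of the probe set used for Rad54l (−0.61 and −0.73), Exo1 (−0.76), Rpa1 (−0.26), Rpa2 (−0.57), Rad18 (−0.60), Xrcc4 (−0.17) and Parp1 (−0.46 and −0.35). The second probe sets of Chek1 and Timeless had falls of smaller size, as given above, and that of Timeless had −0.26 at 36 h and −0.98 at 60 h.

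Other repair and checkpoint genes were taken from a list of 72, of which 52 had a probe set and 50 were tested. In CreER cultures with 4OHT 20 of the 50 fell and 1 rose, beside 8.36% and 4% of all genes, with a median of −0.33. The lowest p-values were those of Dna2 (−0.76), a nuclease and helicase of resection, Lig1 (−0.65), which seals Okazaki fragments, Recql (−0.68), a helicase, and Ung (−0.66), which removes uracil. Fanci (−0.63), Rad51c (−0.67), Usp1 (−0.60), Prkdc (−0.63), Hus1 (−0.54), Mre11a (−0.49) and Wee1 (−0.41) fell as well. Mre11a is the third subunit of the complex with Nbn and Rad50, so all of its measured subunits fell. The 1 that rose was Ercc5 (0.39, adjusted p = 0.0486, limma), a nuclease of nucleotide excision repair and also on the list of p53 targets. Without Cre 0 of the 50 passed, and the difference between the genotypes passed for Lig1 (−0.65, adjusted p = 0.0238, limma). After median scaling 20 were more negative with CreER (9.91% of all genes) and 1 more positive, and after quantile normalization 18 (10.2%) and 1.

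Proliferation genes and p53 targets moved beside the members. Of 14 proliferation genes tested 12 fell in CreER cultures with 4OHT, beside 8.36% of all genes, with a median of −0.53, among them Bub1 (−0.85), Ccne2 (−0.84), Mki67 (−0.81) and Top2a (−0.73). Of 16 p53 targets tested 11 rose, beside 4% of all genes, with a median of 0.52, led by Cdkn1a (0.97), Trp53inp1 (1.07) and Bbc3 (1.12). Under vehicle 10 of these 16 were lower with CreER than without and 1 was higher (median −0.52), beside 26.6% and 7.97% of all genes. Their mean log2 level at 36 h was 8.30 and 8.52 with CreER and vehicle, and 8.81 and 8.85 with CreER and 4OHT. Without Cre under vehicle it was 8.85 and 8.95. At 60 h the same groups had 8.51 and 8.20, 8.92 and 9.24, and 8.62 and 8.79. The 4OHT response differed from that in cultures without Cre for 0 of the 14 proliferation genes (0.814% of all genes were more negative). Their median difference was −0.40, beside −0.41 for the members and −0.02 for all genes. The response differed for 6 of the 16 p53 targets (1.52% more positive), with a median difference of 0.55. After median scaling this difference passed for 12 (9.91%) and 11 (5.55%). The part of these 2 lists in the fall of the repair genes was not tested. The mean log2 level of the 32 members was 8.61 and 8.80 on the CreER vehicle arrays at 36 h and 8.59 and 8.36 at 60 h. With 4OHT it was 8.18 and 8.26 at 36 h and 7.72 and 8.002 at 60 h. On the arrays without Cre it lay between 8.30 and 8.81. The 4 CreER arrays with 4OHT were thus the 4 lowest of the 16.

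**Figure D4:**
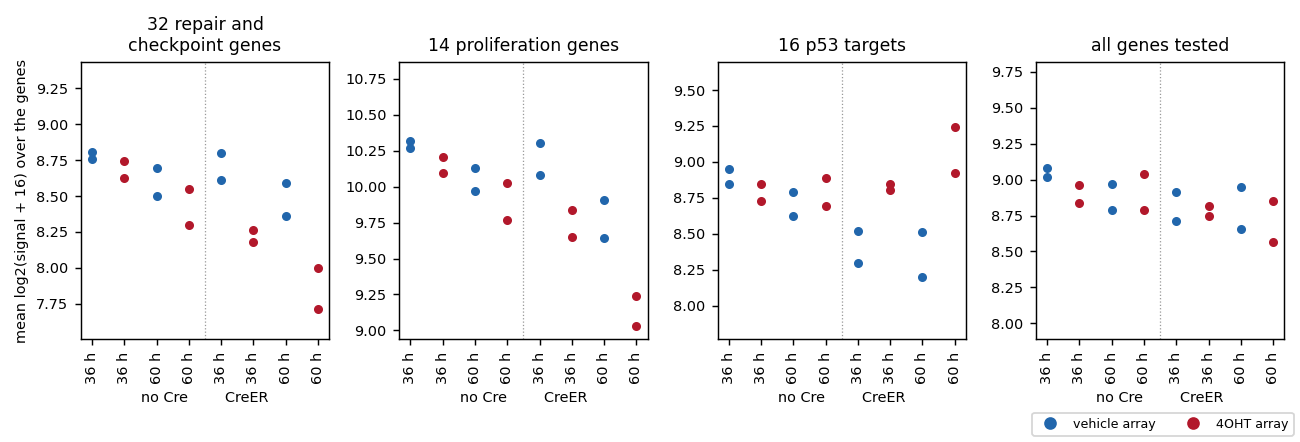
Mean log2(signal + 16) on each of the 16 arrays over the 32 members, 14 proliferation genes, 16 p53 targets and all 7619 genes tested, with vehicle arrays in blue and 4OHT arrays in red. The vertical axes span the same range and do not start at 0. The members lie lowest on the CreER 4OHT arrays, at 7.72 to 8.26. The mean over all genes lies between 8.57 and 9.08. Its lowest value is on CreER 4OHT 60 h replicate 1, the array that also has the lowest member mean and the lowest median signal (92.2).

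Cell type markers were summed per array in CreER cultures. The 8 microglial genes came to 100.1 to 168 under vehicle and 122 to 172 with 4OHT, the 6 endothelial and mural genes to 72.6 to 124 and 75.1 to 125, and the 5 fibroblast genes to 69.8 to 119 and 69.2 to 99.6, all of which overlap. The 5 oligodendrocyte genes came to 839 to 1156 and 903 to 1167, mostly from Cnp, which did not pass (0.08).

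Genes of astrocytes and neurons that are also well expressed here moved in part. The 7 astrocyte genes came to 5896 to 7192 under vehicle and 4998 to 6700.3 with 4OHT, and at 36 h the treatments did not overlap, at 5896 to 6002 and 5350 to 5578. Of the 4 tested, S100b rose (1.05, adjusted p = 3.01e-12, limma), Slc1a3 fell (−0.35), and Aldoc and Gja1 did not pass, while Gfap, Aqp4 and Slc1a2 were below the filter. The 8 neuronal genes came to 1488 to 1777 under vehicle and 979 to 1504 with 4OHT, also without overlap at 36 h, at 1576 to 1777 and 1311 to 1399. Of the 2 tested Map2 fell (−0.38) and Syt1 rose (0.49), and Dcx, Tubb3, Rbfox3 and Snap25 were below the filter. The neuronal sum came mostly from Map2 (mean signal 1560), and Aldoc (3678) was the largest part of the astrocyte sum. Among all genes tested, 27.6% had both CreER 4OHT arrays below both vehicle arrays at 36 h.

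The sum over the 8 stem cell genes was 14607 to 18372 under vehicle and 13803 to 17737 with 4OHT, which overlap. Of the 6 tested 2 fell and 0 rose, beside 8.36% and 4% of all genes, with a median of −0.16. They were Pax6 (−0.40, adjusted p = 0.0342, limma) and Fabp7 (−0.27, adjusted p = 0.0465, limma), while Nes, Sox2, Vim and Msi1 did not pass. The part of these markers in the fall of the repair genes was not tested.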

How the data were processed

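Each sample was 1 Affymetrix array. Per the labels, RNA was extracted with TRIzol and biotin-labelled with the ENZO transcript kit. Values are deposited as linear intensity, 1 for every probe set of an array, and the authors used MAS5, per the submitters' processing notes; its version and scaling target are not given in the sources used here. Of 22690 probe sets, 64 controls were left out, and 20380 carried 1 symbol, 691 several and 1555 none. A gene entered the tests when the 16-array mean of log2(signal + 16) was at least 6.07, the 40th percentile. Array medians differed by 1.44 times, under a limit of 1.5, so signals were not rescaled. 1 limma fit (limma 3.58.1, R 4.3.3) of 8 group means with a mean-variance trend gave two-sided tests with Benjamini-Hochberg adjustment over all genes per comparison. The prior degrees of freedom were infinite, so each gene's spread came from the shared trend; after median scaling they were 11.2 and after quantile normalization 6.84. The fit was tested on simulated data. Every member past the filter could be named, with each array's value for those with the largest changes; the members and lists were chosen with earlier results of these data known. Other scalings, pseudocounts, filters, probe sets, designs and left-out arrays were tried. The number of arrays limits the precision, since an array has no depth. Symbols came from the platform annotation, and 30 of the 35 genes matched a RefSeq promoter.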

Additional observations from a re-analysis of the deposited data

Results flagged for a closer look

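For 8 members the 4OHT response differed between CreER cultures and cultures without Cre by a test of that difference over both times. On the log2(signal + 16) scale the difference was −0.90 for Blm, −0.88 for Brca1, −0.85 for Dtl, −0.83 for Chek1, −0.78 for Timeless, −0.72 for Fignl1, −0.65 for Tipin and −0.64 for Rad51ap1, each more negative with CreER. In CreER cultures both 4OHT arrays lay below both vehicle arrays at each time for all 8.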

How the results depend on the processing

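Of the 24 falls in CreER cultures over both times, those of Brca1, Brca2, Rad51ap1, Rad54l, Blm, Fignl1, Exo1, Fanca, Atm, Chek1, Timeless, Tipin, Rpa2, Dtl and Xrcc5 passed in every alternative fitted to them; Chek1 was not tested with the mean of its probe sets. The count was 17 to 27 with 1 array left out. Falls at 36 h numbered 26 with median scaling, 25 with quantile normalization, 7 with mean probe sets, 6 with the actin ratio, 0 with no filter and 0 to 14 with 1 array left out; at 60 h, 11 with no filter, 6 with the compared arrays alone and 10 to 21. Larger falls with CreER than without numbered 20, 22, 3, 13 and 2 in the order of the 36 h settings, and 3 to 10. The time difference of the response passed upward for 1 member with median scaling (1.77% of all genes), mean probe sets (0.0815%) or no trend (0.118%). It passed downward for 1 with quantile normalization (0.735%). Under vehicle CreER was higher in 11 members with either scaling (28.6% and 29.2% of all genes) and 2 with the actin ratio (9.17%). It was lower in 1 with that ratio (7.7%) and 3 with no filter (14.8%). Both counts changed with 1 array left out. Lower at 60 h without Cre were 23 with median scaling (39.5% of all genes), 12 with quantile normalization (14.9%) and 8 with the compared arrays (5.62%). There were 1 with no filter (0.161%), and 0 with mean probe sets (1.83%) or the actin ratio (0.0263%). After quantile normalization 1 was higher (12.3%). The count changed with 1 array left out. With CreER and vehicle 17 (12%) and 6 (6.47%) were lower with the scalings. In the CreER response over both times signs turned for values near 0. Fancc had 0.0090 with quantile normalization. Fancg had −0.13 with mean probe sets, −0.0081 with the actin ratio and −0.0842 to 0.106 with 1 array left out. Ercc1 had 0.0452 with median scaling, 0.0830 with quantile normalization and −0.0751 to 0.0669 with 1 array left out. A called value also turned, that of Timeless over time without Cre, −0.57 in the main fit. It was 0.0206 with mean probe sets and 0.24 with the actin ratio. The cause was not tested. With no filter more genes enter the adjustment.

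The replicate numbers did not pair the samples: deviations of groups with the same number correlated at −0.12 to 0.31 (median −0.02, 6 of 28 over 0.1). With the replicate block the falls in CreER cultures numbered 23 when the times were joined (6.84% of all genes), 11 at 36 h (1.02%) and 16 at 60 h (3.73%). In that fit 7 members had a more negative 4OHT response with CreER than without (0.512%).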
